A study of Mus musculus with 6 samples.

Results

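The genes Fkbp11, Arf3, Wnt10b and Wnt1 lie next to each other on mouse chromosome 15, and they are described here as 4 of the 55487 genes counted. They were chosen by their measured difference between the groups of this study and by their position as neighbours, so that difference is given below as a description, without a test. RNA was sequenced from muscle stem cells of 10-week-old mice, collected 60 h after cardiotoxin (CTX), a venom toxin that destroys muscle fibres and sets off their repair. Setdb1 KO libraries (n = 3) came from mice labelled KO that were given tamoxifen, and control libraries (n = 3) came from mice labelled WT that were given oil. Genotype and tamoxifen therefore cannot be told apart. The sources used here do not give the recombinase, its promoter or the deleted exon. Libraries of one group carry replicate numbers and are labelled as biological replicates.

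SETDB1 is a methyltransferase that places methyl groups on lysine 9 of histone H3, a mark of silent chromatin that can spread over neighbouring genes. Wnt10b and Wnt1 encode secreted Wnt proteins, which bind Frizzled and LRP receptors on nearby cells and, through beta-catenin, switch on target genes such as Axin2. In muscle, Wnt signalling is known for its part in the commitment of activated stem cells and in the choice between muscle and fat fate. Arf3 encodes a small GTPase of the ADP-ribosylation factor (ARF) family, which recruits coat proteins to Golgi membranes. Fkbp11 encodes a membrane-anchored prolyl isomerase of the endoplasmic reticulum (ER), a protein of secretory cells.

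The block spans 69472 bases of GRCm38. Fkbp11 (ENSMUSG00000003355) occupies 98724366 to 98728198, Arf3 (ENSMUSG00000051853) 98736634 to 98763214 and Wnt10b (ENSMUSG00000022996) 98770712 to 98778150, all on the minus strand, so that Wnt10b is the most upstream of the 3 in the direction of transcription. Wnt1 (ENSMUSG00000022997) occupies 98789857 to 98793837 on the plus strand and points away from Wnt10b. The gaps between neighbours are 8435, 7497 and 11706 bases, and no other annotated gene lies in them or overlaps a block gene. All 4 are protein-coding. Of the words of 50 bases in their annotated transcripts, 2.19% for Fkbp11, 0.228% for Arf3 and 0% for Wnt10b and Wnt1 occur in transcripts of another gene.

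The bases just before the annotated starts are shown because they are the start regions of genes that share a neighbourhood, and CpG pairs, the sites of DNA methylation, are in capitals. They come from RefSeq (GRCm38.p6, all 4 genes matched) and run from chr15:98728199-98728448 (minus strand) for Fkbp11, chr15:98763215-98763368 (minus) for Arf3, chr15:98778207-98778400 (minus) for Wnt10b and chr15:98789607-98789856 (plus) for Wnt1. Bases inside an annotated transcript were left off, which shortens the Arf3 and Wnt10b stretches.
Fkbp11: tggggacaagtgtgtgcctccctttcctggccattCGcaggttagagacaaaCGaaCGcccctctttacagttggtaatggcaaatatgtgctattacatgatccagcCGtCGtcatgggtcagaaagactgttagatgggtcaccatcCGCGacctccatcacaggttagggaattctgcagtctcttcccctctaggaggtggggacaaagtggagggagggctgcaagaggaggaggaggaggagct
Arf3: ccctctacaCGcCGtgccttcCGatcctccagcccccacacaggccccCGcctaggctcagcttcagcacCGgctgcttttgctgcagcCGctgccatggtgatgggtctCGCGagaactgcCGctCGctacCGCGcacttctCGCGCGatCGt
Wnt10b: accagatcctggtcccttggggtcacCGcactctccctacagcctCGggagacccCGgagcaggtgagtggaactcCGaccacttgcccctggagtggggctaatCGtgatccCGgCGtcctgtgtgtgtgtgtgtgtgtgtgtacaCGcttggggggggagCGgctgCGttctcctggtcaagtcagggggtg
Wnt1: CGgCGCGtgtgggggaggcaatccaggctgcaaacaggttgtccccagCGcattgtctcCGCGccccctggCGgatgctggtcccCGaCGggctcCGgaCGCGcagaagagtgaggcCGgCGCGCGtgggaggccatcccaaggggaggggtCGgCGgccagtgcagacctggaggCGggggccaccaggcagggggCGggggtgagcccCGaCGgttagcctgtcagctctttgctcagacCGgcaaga
These printed stretches hold 7, 16, 10 and 23 CpG pairs. Over the full 250 bases before the RefSeq start, the ratio of CpG pairs observed to those expected from base content was 0.399 for Fkbp11, 0.522 for Wnt10b, 0.735 for Wnt1 and 0.836 for Arf3, against a median of 0.379 over 27018 mouse promoters. Fkbp11, near the median, and Arf3, which exceeds 83.6% of promoters, thus differ in CpG content. The Arf3 window includes the bases left off above and holds 25 CpG pairs, of which 16 are printed. Fkbp11 and Arf3 each have 2 RefSeq starts, and the most upstream was used. The GC box GGGCGG was found once in the 250-base window of Arf3 and once in that of Wnt1. On either strand, 33% of promoters hold it. The Arf3 copy lies among the bases left off as inside an annotated transcript, so it is not in the stretch shown. No match was found in the 4 windows, on either strand, to TATAAA (in 13% of promoters), CCAAT (34.5%), CACGTG (6.04%), CAGCTG (12.7%), the TCF/LEF core CTTTGA (14.1%), TGACGTG of the unfolded protein response element (1.6%) or the ER stress element, in which CCAAT and CCACG stand 9 bases apart (0.122%). The ER stress element contains the CCAAT box. No match says only that these letters are absent from these windows.

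Total counts ran from 4052569 to 5690844 per library. Setdb1 was lower in KO cells, at 14.6 ± 1.88 CPM against 35.8 ± 4.26 CPM in control cells (CPM, counts scaled to an equal library size, mean ± SD, n = 3 each; log2 fold change -1.30, SE 0.16, edgeR adjusted p = 2.092e-04). All 8 muscle stem cell markers had enough counts to test, with summed levels of 1430 to 1854 CPM in KO and 1257 to 1335 CPM in control libraries. Of these markers only Myod1, the gene of a muscle regulatory factor, was called, at 292 ± 63.4 CPM in KO and 142 ± 5.50 CPM in control cells (edgeR adjusted p = 7.791e-04). KO library 1 stood apart in its counts for olfactory receptor genes. At least 1 count was found there in 81.2% of 1093 olfactory receptor genes, against 9.42% to 15.3% in the other 5 libraries. A ribosomal RNA gene took 38.4% of its counts, against 28.6% to 32.2% in the others. Neutrophil markers split the libraries in another way, summing to 1.06, 552 and 159 CPM in KO libraries 1 to 3 and to 0.801, 0.626 and 1281 CPM in control libraries 1 to 3. The results are therefore also given without KO library 1 or control library 3 where those libraries bear on them.

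Wnt10b was nearly silent in control cells and present in all KO libraries. It had 42, 39 and 46 counts in KO libraries 1 to 3 against 0, 0 and 1 in control libraries 1 to 3. These counts correspond to 11.2, 8.01 and 8.99 CPM in KO and 0, 0 and 0.185 CPM in control libraries. The groups did not overlap, and every KO library lay far above every control library. The ratio of the summed counts, 127 in KO and 1 in control, was 140 with an exact 95% interval of 24.7 to 5589, which covers counting error only. Wnt10b passed the low-count filter through its KO libraries alone. In RNA from bulk cells, more RNA in each cell and more cells that express the gene cannot be told apart.

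Fkbp11 had 23.1, 21.6 and 20.9 CPM in KO libraries against 3.81, 2.71 and 3.14 CPM in control libraries. Its KO levels were tightly grouped and lay well above the control range. The means were 21.9 ± 1.15 CPM in KO and 3.22 ± 0.55 CPM in control cells, a log2 fold change of 2.75 (SE 0.21). Without KO library 1 it was 2.71, and without control library 3 it was 2.73.

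Arf3 was the most abundant gene of the block in both groups and showed the smallest fold difference of the 3 genes with enough counts. Its level was 100, 84.6 and 99.5 CPM in KO libraries against 32.8, 28.4 and 34.4 CPM in control libraries. The groups were again separate, and library 2 was the lowest of each. Means were 94.7 ± 8.75 CPM in KO and 31.9 ± 3.10 CPM in control cells (log2 fold change 1.57, SE 0.13). The value was 1.53 without KO library 1 and 1.62 without control library 3.

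Wnt1 had 2 counts in KO library 2 and 0 in every other library, so it was not tested and no fold is given. The 2 counts over the KO group are under the floor of 3 counts, which equals 0.218 CPM over the KO and 0.197 CPM over the control group. Wnt1 was thus not detectable above the floor in either group, while Wnt10b, on the other side of a gap of 11706 bases, was read in every KO library.

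**Figure D1:**
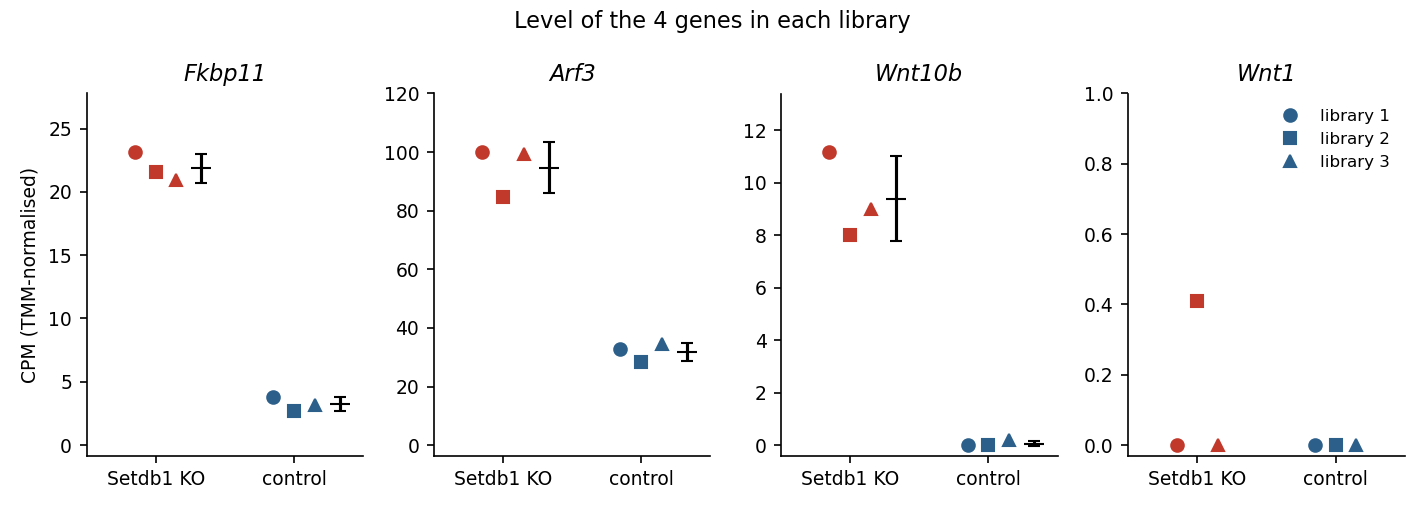
Level of each gene in CPM (y axis, linear, a scale of its own per panel) in the KO libraries (red, left) and control libraries (blue, right), 1 point per library with the symbol giving its number; black marks show mean ± SD (n = 3) and are left out for Wnt1, which rests on 2 counts. For Fkbp11, Arf3 and Wnt10b all 3 KO libraries lie above all control libraries.

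Per kilobase of annotated exon, the order of the levels was the same in both groups, with Arf3 first, then Fkbp11, Wnt10b and Wnt1. Arf3 was at 17.5 to 20.7 CPM per kb in KO and 5.89 to 7.12 in control libraries, Fkbp11 at 7.73 to 8.55 in KO and 1.00 to 1.41 in control libraries, and Wnt10b at 2.36 to 3.29 in KO and 0 to 0.0543 in control libraries. The library ranges of these 3 genes did not overlap in either group, whereas Wnt10b and Wnt1 overlapped in control cells, where both were at or near 0. In KO library 1 the olfactory receptor genes averaged 0.715 counts per kb of exon, beside 12.4 for Wnt10b, 32.2 for Fkbp11 and 77.9 for Arf3 in the same library.

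Of 11224 genes tested over the whole table, 2.83% were called at an adjusted p under 0.05, with 2.22% higher and 0.615% lower in KO cells. The 3 block genes with enough counts are among the 249 called higher. They were chosen for this difference, so nothing is read from their count. For comparison, KO and control ranges were separate in 24.3% of the tested genes. An unadjusted p under 0.05 in edgeR was reached by 17.7% of them, 10.1% higher and 7.64% lower.

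The tested genes next to the block were not called. The nearest tested genes on the Fkbp11 side were Rnd1, which encodes a small GTPase, Ddx23, which encodes an RNA helicase of the spliceosome, and Cacnb3, which encodes a calcium channel subunit. Rnd1 was at 4.25 ± 1.12 CPM in KO and 3.72 ± 0.82 CPM in control cells (log2 fold change 0.20, SE 0.34, edgeR adjusted p = 0.804). Ddx23 was at 91.0 ± 9.42 CPM in KO and 92.8 ± 5.56 CPM in control cells (log2 fold change -0.03, SE 0.12). Cacnb3, at 3.11 ± 0.36 CPM in KO and 1.45 ± 0.31 CPM in control cells, had separate groups but was not called (log2 fold change 1.09, SE 0.41, edgeR adjusted p = 0.184). Between Rnd1 and the block lies Ccdc65, named after its values were seen, a gene of motile cilia with 4, 2 and 2 counts in KO libraries and 0 in each control library, too few to test.

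On the Wnt1 side the nearest tested genes were Prkag1, Kmt2d and Lmbr1l. Prkag1, which encodes a subunit of the energy sensor AMPK, was at 25.9 ± 0.85 CPM in KO and 22.2 ± 2.62 CPM in control cells (log2 fold change 0.22, SE 0.15, edgeR adjusted p = 0.459). Kmt2d, which encodes a histone H3 lysine 4 methyltransferase, had a log2 fold change of -0.20 (SE 0.19) and Lmbr1l, which encodes a membrane receptor protein, one of 0.31 (SE 0.30). Neither was called (edgeR adjusted p = 0.642 and 0.636). From the start of Wnt10b, the start of Prkag1 lies 53.4 kb to one side and that of Rnd1 101 kb to the other. Ddn and B130046B21Rik, between Wnt1 and Prkag1, had too few counts to test, and an exon of B130046B21Rik overlaps Prkag1 on the opposite strand by 950 bases.

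Within 500 kb on either side of the block, 62 genes other than the block genes are annotated, of which 16 were tested. The other 46 had at most 34 counts in all libraries together, and 15 of them had none. The tested genes had a median log2 fold change of 0.04, beside 0.01 over all tested genes, and ranged from -0.31 to 1.09. Of the 16, 2 were called higher and none lower with edgeR, or 12.5% against the 2.83% of all tested genes. At an unadjusted p under 0.05 there were 3 of 16, beside 17.7% of all tested genes, and limma-voom also called 2, while DESeq2 called 1. Their distances from the block were 156 kb and 205 kb. KO and control ranges were separate for 5 of the 16, or 31.2%, beside 24.3% of all tested genes.

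Tuba1a, an alpha-tubulin gene, was at 349 ± 14.6 CPM in KO and 225 ± 20.7 CPM in control cells (log2 fold change 0.63, SE 0.12, edgeR adjusted p = 0.00843). Its neighbours Tuba1b and Tuba1c, at log2 fold changes of -0.14 and 0.11, were not called. Other genes hold 72.9% of the 50-base words of Tuba1a, which makes its counts uncertain, and its call ended without control library 1 or 2 (edgeR adjusted p = 0.0569 and 0.0775). Snora34, a small nucleolar RNA gene inside an intron of Kansl2, was at 14.2 ± 1.86 CPM in KO and 7.39 ± 1.92 CPM in control cells (log2 fold change 0.94, SE 0.22, edgeR adjusted p = 0.0363). Its exon overlaps Mir1291 by 92 bases. The call ended in DESeq2 (adjusted p = 0.0824) and whenever a library other than control library 3 was left out (edgeR adjusted p of at most 0.164). Kansl2 itself had a log2 fold change of -0.03.

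**Figure D2:**
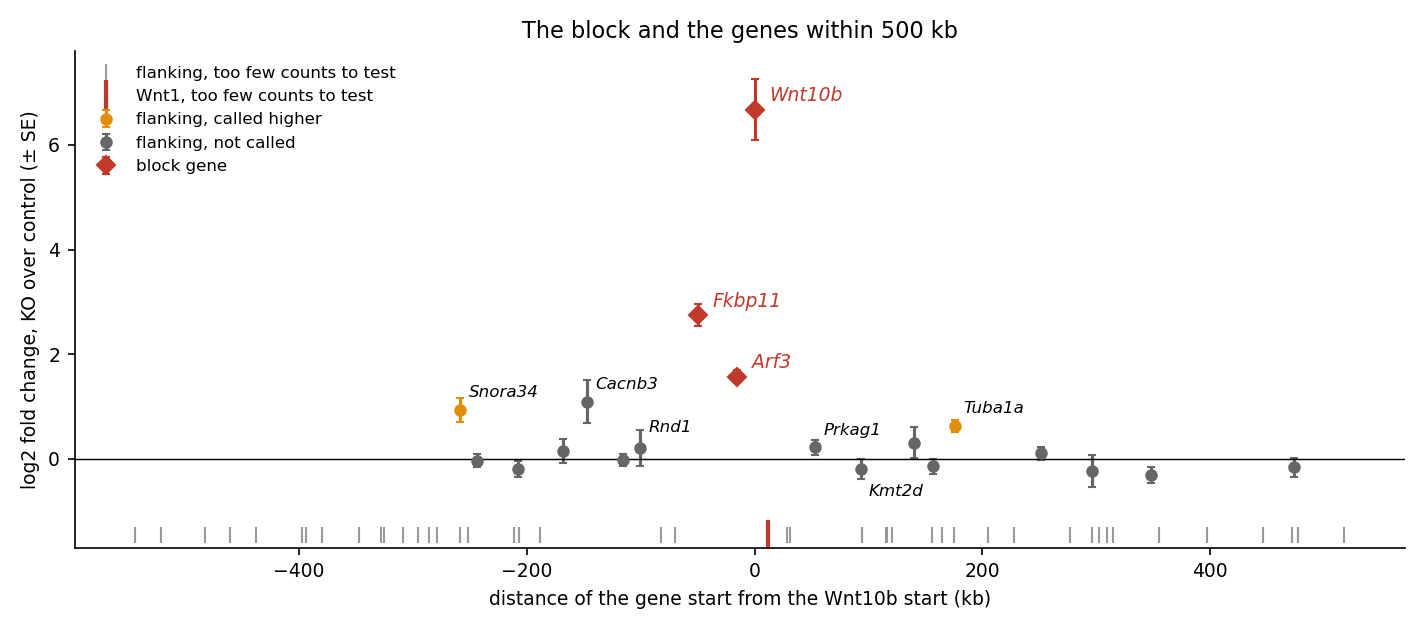
Log2 fold change, KO over control, with SE (y axis) for each tested gene within 500 kb, against the distance in kb of its start from that of Wnt10b (x axis). Wnt10b, Fkbp11 and Arf3 (red diamonds) lie at 6.68, 2.75 and 1.57, while the 16 flanking genes lie between -0.31 and 1.09; ticks near the bottom mark genes with too few counts, and the value of Wnt10b rests on 1 control count.

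Among Wnt ligands, Wnt7b and Wnt10b had the highest levels per kb in KO cells. Of the other 17 Wnt ligand genes, 15 had too few counts to test, and Wnt3a and Wnt7a had none. Per kilobase of exon, Wnt10b ranked second of 19 ligands in KO cells, at 2.76 ± 0.48 CPM per kb, after Wnt7b at 2.68 to 5.32, whose library range it overlapped, and above Wnt10a at 1.11 to 1.40. In control cells it ranked 12, which rests on 1 count in control library 3, and ligands at that level have too few counts to be ordered. Wnt10b made up 27.9% ± 4.52 of the summed ligand level per kb in KO and 0.304% ± 0.526 in control libraries (SD, n = 3 each). The ligands with enough counts besides Wnt10b were Wnt7b, at 18.4 ± 6.78 CPM in KO and 15.3 ± 1.38 CPM in control cells, and Wnt10a, the closest relative of Wnt10b, at 3.09 ± 0.36 CPM in KO and 3.06 ± 1.13 CPM in control cells. Neither was called (edgeR adjusted p = 0.605 and 1.00).

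Besides Wnt10b, no tested gene of the lists of Wnt ligands, modulators, receptors, relay and target genes was called. Over all tested genes 2.83% were called, so the lack of calls in lists this small is not read as a result. Among secreted modulators, only Wls, which escorts Wnt proteins to the cell surface, and Sfrp2, a Wnt-binding inhibitor, could be tested. Wls was at 27.1 ± 1.60 CPM in KO and 25.4 ± 3.01 CPM in control cells, and Sfrp2 was at 13.7 ± 2.94 CPM in KO and 7.30 ± 3.65 CPM in control cells (log2 fold change 0.92, SE 0.31, edgeR adjusted p = 0.159). The Sfrp2 groups overlapped, with 10.4 CPM as the lowest KO value and 11.4 CPM as the highest control value. Of 15 tested receptors none was called (median log2 fold change 0.03). The most abundant, the co-receptor gene Lrp6, was at 110 ± 11.9 CPM in KO and 88.2 ± 14.1 CPM in control cells (edgeR adjusted p = 0.234), and Ryk, a Wnt-binding receptor gene, had a log2 fold change of -0.09. Of 21 tested genes of the intracellular relay none was called (median -0.04), among them Ctnnb1, the beta-catenin gene, with a log2 fold change of 0.19 (SE 0.11).

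Of 15 feedback and target genes, 7 were tested and none was called, with a median log2 fold change of -0.09. Ccnd1, the cyclin D1 gene, was at 278 ± 12.3 CPM in KO and 301 ± 31.8 CPM in control cells (log2 fold change -0.11, SE 0.12, edgeR adjusted p = 0.675). Myc was at 114 ± 9.12 CPM in KO and 142 ± 14.8 CPM in control cells (log2 fold change -0.32, SE 0.12, edgeR adjusted p = 0.184). Axin2, the usual readout of beta-catenin activity and named here for that, was at 10.8 ± 1.61 CPM in KO and 11.6 ± 0.56 CPM in control cells (log2 fold change -0.09, SE 0.19, edgeR adjusted p = 0.844). At an unadjusted p under 0.05 in edgeR, 0 of 2 other ligands, 1 of 2 modulators, 4 of 15 receptors (1 higher and 3 lower), 1 of 21 relay genes and 1 of 7 targets passed, beside 17.7% of all tested genes. The modulator and the relay gene were higher and the target was lower. DESeq2 and limma-voom called none of these genes either, while edgeR called 1 modulator without control library 1 or without a low-count filter, and 1 receptor without both control library 3 and KO library 1. A p above the threshold does not show that the levels were equal.

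Among the 6 ARF genes, Arf3 held rank 6 by level per kb in control and rank 4 in KO cells. In control libraries its range overlapped that of Arf5 (5.46 to 8.33 CPM per kb), and in KO libraries it lay above Arf5 (7.58 to 11.9) and below Arf4 (38.0 to 43.9). It made up 9.34% ± 0.975 of the summed ARF level per kb in KO and 3.68% ± 0.422 in control libraries. Of 26 other tested ARF genes and regulators, none was called with edgeR, DESeq2 or limma-voom (median log2 fold change 0.07). With edgeR 2.83% of all tested genes were called, so the lack of calls in so small a list is not read as a result. In edgeR 4 higher and 1 lower passed an unadjusted p under 0.05, beside 10.1% and 7.64% of all tested genes. Arf1, the most abundant member and a close homologue of Arf3, was at 177 ± 5.54 CPM in KO and 159 ± 6.18 CPM in control cells (log2 fold change 0.16, SE 0.11, edgeR adjusted p = 0.489). Arf4 had a log2 fold change of 0.29 (SE 0.11, edgeR adjusted p = 0.192).

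Fkbp11 ranked 6 of 15 FKBP genes by level per kb in KO and 11 in control cells. In KO libraries its range overlapped those of Fkbp2 (7.62 to 8.70 CPM per kb), Fkbp3 (6.57 to 8.53) and Fkbp8 (5.57 to 7.81), and in control libraries that of Fkbpl (0.899 to 1.25). None of the 11 other tested FKBP genes was called with edgeR, DESeq2 or limma-voom (median 0.05), beside 2.83% of all tested genes called with edgeR. An unadjusted p under 0.05 was reached in edgeR by 1 higher and 3 lower genes, beside 10.1% and 7.64% of all tested genes. Fkbp1a, the gene of the classic FK506-binding protein, was at 127 ± 13.3 CPM in KO and 123 ± 7.78 CPM in control cells, and Fkbp4, the gene of an HSP90 partner, was at 122 ± 14.4 CPM in KO and 148 ± 0.464 CPM in control cells (edgeR adjusted p = 0.884 and 0.232). Fkbp14, an ER-resident relative named after its values were seen, had a log2 fold change of 1.06 (SE 0.36, edgeR adjusted p = 0.142).

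**Figure D3:**
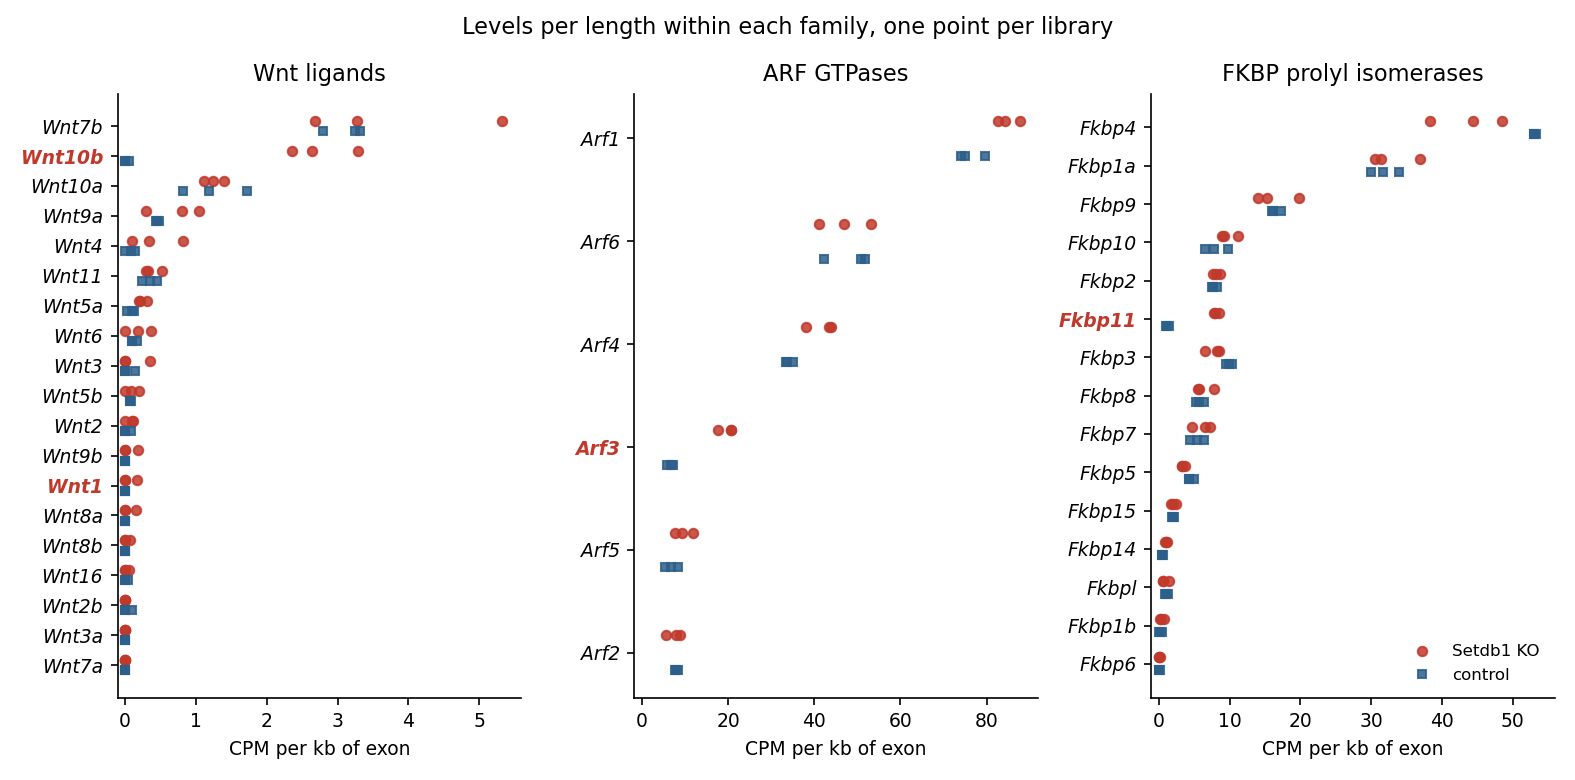
CPM per kb of annotated exon (x axis, linear, a scale of its own per panel) for each Wnt ligand, ARF GTPase and FKBP gene, with 1 red point per KO library drawn above 1 blue point per control library and the block genes in red bold. Wnt10b has KO levels from 2.36 to 3.29 and control levels from 0 to 0.0543, Arf3 17.5 to 20.7 and 5.89 to 7.12, and Fkbp11 7.73 to 8.55 and 1.00 to 1.41.

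Fkbp11 belongs to the genes that secretory cells use to fold proteins in the ER, many of which answer to the transcription factor XBP1. Of 29 tested genes of ER folding and the unfolded protein response, 2 were called higher and none lower, and 27 had a positive log2 fold change, beside 50.9% of all tested genes. Their median was 0.26, beside 0.01 over all tested genes. The share called, 2 of 29, stands beside 2.83% of all tested genes. An unadjusted p under 0.05 in edgeR was reached by 12 of the 29, all higher, beside 10.1% higher among all tested genes. Xbp1 itself was at 98.4, 90.4 and 82.1 CPM in KO libraries against 50.3, 50.9 and 69.8 CPM in control libraries. The groups were separate, with control library 3 nearest to the KO range, and Xbp1 rose (log2 fold change 0.66, SE 0.14, edgeR adjusted p = 0.019). Herpud1, which acts in the removal of misfolded ER proteins, rose to 63.5 ± 3.17 CPM in KO cells, against 43.4 ± 7.18 CPM in control cells (log2 fold change 0.55, SE 0.13, edgeR adjusted p = 0.04). Both calls depended on single libraries. That of Xbp1 ended without KO library 1 or 2 or control library 1 or 2 (edgeR adjusted p up to 0.143). The call of Herpud1 ended whenever a library other than control library 3 was left out (edgeR adjusted p of at most 0.24) and in DESeq2 (adjusted p = 0.0824). It also ended with library totals alone and without a low-count filter (edgeR adjusted p = 0.137 and 0.0629).

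**Figure D4:**
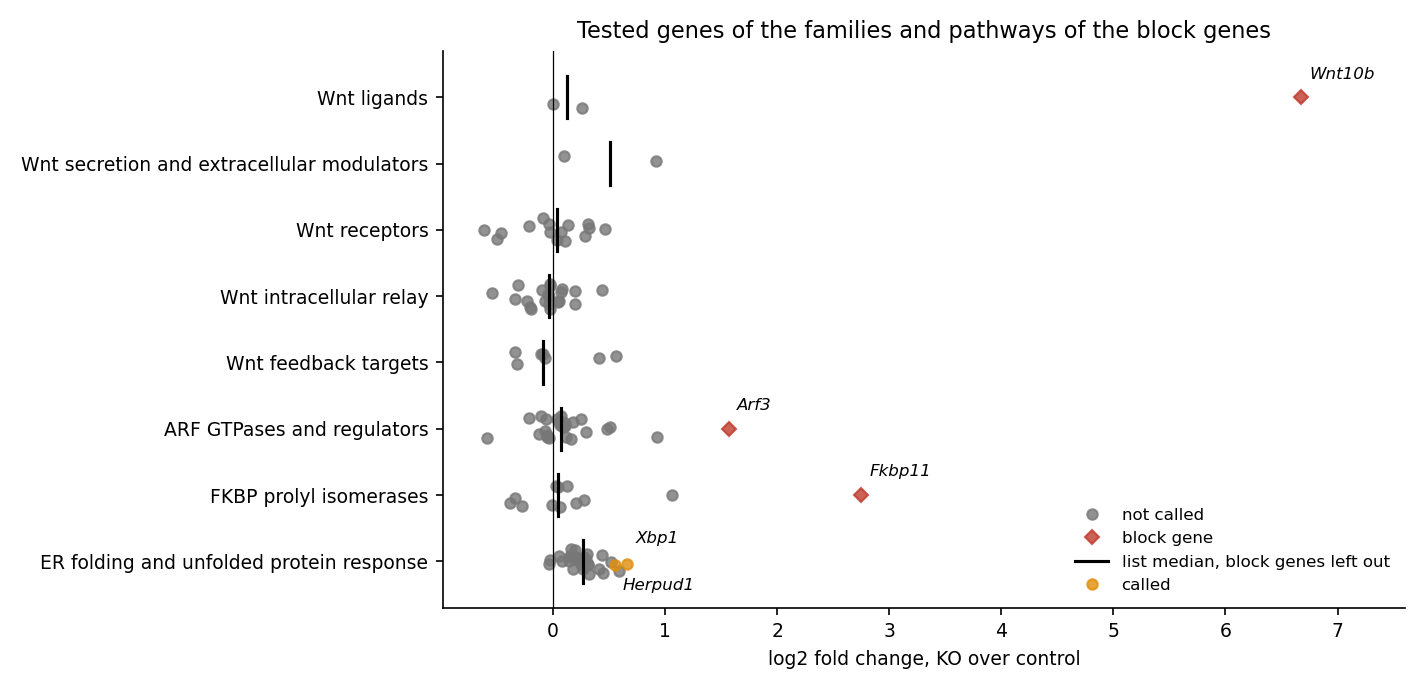
Log2 fold change, KO over control (x axis), of every tested gene in the lists around the block genes (rows); black bars are list medians without the block genes, orange points are called genes and red diamonds the block genes. Medians lie between -0.09 and 0.51, and Xbp1 and Herpud1 are the called genes besides the block.

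Markers of other cells were set beside the block genes. Markers of B and plasma cells, in which Fkbp11 is abundant, summed to 0.195 to 0.821 CPM in KO and to 0 to 2.03 CPM in control libraries, and 0 of 6 reached the test. Mzb1, a plasma cell gene of the ER, had no count in any library. Macrophage markers summed to 3.70 to 4.26 CPM in KO and 3.76 to 5.61 CPM in control libraries, with 1 of 5 tested and not called. Fibro-adipogenic markers, of which 3 of 5 were tested and none called, ranged from 663 to 1115 CPM in KO and 309 to 830 CPM in control libraries. Mural markers, 2 of 3 tested, ranged from 63.3 to 86.4 CPM in KO and 36.7 to 68.0 CPM in control libraries, and Acta2 was called higher. Acta2 made up most of that sum, at 64.4 ± 12.2 CPM in KO and 38.9 ± 7.2 CPM in control cells. Rgs5, at 8.33 ± 1.60 CPM in KO and 8.24 ± 7.74 CPM in control cells, was not called. Myh11, at 1.81 ± 0.77 CPM in KO and 1.90 ± 2.06 CPM in control cells, was not tested. The part of these cell types in the block's difference was not tested. Endothelial and Schwann cell markers stayed at or under 4.79 CPM in sum in every library. Neutrophil markers, of which 3 of 6 were tested and none called, had the values given above, and their part was not tested either.

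Among tested genes with a gene name, those most like each block gene over the 6 libraries lay on other chromosomes. Predicted genes, Rik symbols, numbered clones and pseudogenes were left out of this search. Likeness was the root mean square difference of log2(CPM + 0.5), taken relative to the control mean. For Fkbp11 the 3 nearest were Blnk (0.14), Pcdh17 (0.17) and Zfp37 (0.22), on chromosomes 19, 14 and 4. For Arf3 they were Atf7ip (0.12), Ccng1 (0.12) and Pcdhga8 (0.15), on chromosomes 6, 11 and 18. For Wnt10b they were Tcfl5 (0.32), Gstt1 (0.43) and Cbr3 (0.55), on chromosomes 2, 10 and 16. Their log2 fold changes, 4.69, 3.75 and 3.79, were below the 6.68 of Wnt10b. The added 0.5 CPM narrows such differences in the measure where control levels are near 0. The block genes were less alike among themselves, at 0.75 for Fkbp11 and Arf3, 1.12 for Fkbp11 and Wnt10b, and 1.83 for Arf3 and Wnt10b. Since the measure contains the KO difference by which the block genes were chosen, it is a description only. The nearest genes were also picked as the smallest differences in a search over many genes, while the block pairs were fixed. That the picked genes were nearer, and on other chromosomes, therefore allows no conclusion about the block.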

How the data were processed

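RNA sequencing libraries of 3 Setdb1 KO and 3 control samples were used. The deposited table holds raw whole-number counts for each Ensembl gene in each library. Named in the submitters' processing notes are GRCm38 as build and STAR, Salmon and DESeq2 1.34.0 as tools. Which tool counted, its strand setting and its annotation are not given there. Per the labels' protocols, a stranded total RNA kit with removal of ribosomal RNA was used, and an mRNA kit is named as well. Symbols, positions and merged exon lengths came from GENCODE M21 (GRCm38). Counts were tested with edgeR 4.0.16 in R 4.3.3 (quasi-likelihood, robust dispersion, TMM, default low-count filter), two-sided, with Benjamini-Hochberg adjustment over 11224 genes and a threshold of 0.05. Called means past it. CPM is scaled by TMM-normalised sizes, and SE is the fold change over the root of its F statistic. The procedure was tested on simulated data. Total counts per library were 4052569 to 5690844. Intervals and floors cover counting error only, since no molecular identifiers are named. Alternatives were other scalings, filters and windows, DESeq2 1.42.0, limma-voom (limma 3.58.1), a replicate block, a fit without mitochondrial and structural RNA genes, and fits leaving out each library. The removal of control library 3 with KO library 1 was chosen after seeing the data. The block genes and gene lists were chosen with earlier results of these data known. Named were the block genes, Setdb1, the 3 nearest tested genes on each side, called flanking genes, per list up to 4 called genes or the 2 with the highest level, and the 3 genes most like each block gene. Genes outside this rule are marked, apart from those that only place a value among its family or beside a neighbour. Within each group, no library was a copy of another by a chi-square test.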

Additional observations from a re-analysis of the deposited data

How the results depend on the processing

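The log2 fold changes of Fkbp11 (2.64 to 2.87) and Arf3 (1.48 to 1.64) moved by less than the spread between libraries when each library was left out, and under the other alternatives run. That of Wnt10b, 6.68, rests on 1 control count. It was 7.03 with DESeq2, 6.02 with limma-voom, 6.23 to 8.46 when each library was left out (the highest without control library 3, which holds that count), and 8.40 with control library 3 and KO library 1 both removed.

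Leaving out each library gave 133 to 255 genes called higher, with 249 in all libraries, and 15 to 90 lower, with 69 in all libraries. The lower genes numbered 138 without a low-count filter, 41 with the replicate block and 106 with both of those libraries removed. Without the filter, the median log2 fold change of all genes tested was 0.42, against 0.01 with it. Called flanking genes numbered 0 to 2 when each library was left out, and 1 with DESeq2, with the replicate block and without structural RNA genes, where Snora34 is removed by construction. The number of called genes in the lists, 2 with all libraries, ran from 0 to 2 when each library was left out. It was 1 with library totals alone or the replicate block, where Herpud1 dropped out (edgeR adjusted p = 0.137 and 0.0595). Without mitochondrial and structural RNA genes it was 4, and with both of those libraries removed it was 5. The genes called were not always Xbp1 and Herpud1. Without control library 1, the only called gene was a Wnt modulator. Other causes were not tested. The deviations of same-numbered libraries from their group means had correlations over genes of 0.14, -0.09 and -0.06. Those of differently numbered libraries ran from -0.25 to 0.286. With 3 libraries per group these values cannot settle whether the numbers pair the libraries. The replicate block is therefore given here only. At these depths Wnt1 and 15 other Wnt ligands were out of reach of a test.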

Other observations

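On chromosome 15 outside the block, 17 of 424 tested genes were called, 15 higher and 2 lower, beside 2.83% of all tested genes, and the median log2 fold change was 0.03. Apart from Tuba1a and Snora34, the nearest was Amigo2, which encodes a cell adhesion protein, 1.48 Mb from the Fkbp11 end. It was at 15.5 ± 5.13 CPM in KO and 2.42 ± 0.58 CPM in control cells (log2 fold change 2.67, SE 0.31, edgeR adjusted p = 1.111e-04). On the Wnt1 side the nearest was the keratin gene Krt18 at 3.23 Mb, which was lower in KO cells, at 2.71 ± 0.23 CPM against 6.79 ± 0.75 CPM in control cells. Sema5a, the gene of an axon guidance protein, was at 8.19 ± 0.87 CPM in KO and 1.35 ± 0.75 CPM in control cells, 66.0 Mb away. These genes were named after their values were seen.

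The 7 olfactory receptor genes within 500 kb of the block held 23, 2 and 0 counts in KO libraries 1 to 3 and 0, 2 and 0 in control libraries 1 to 3. Over all 1093 olfactory receptor genes, KO library 1 held 2513 counts, against 150 to 252 in the other libraries. Ccdc65 had 4 of its 8 counts in KO library 1.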
